A study of Rattus norvegicus with 13 samples.

Results

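The genes described here are 48 rat genes that sense, relay or carry out the interferon response, measured in the left ventricle of rats that overexpressed the beta-3 adrenergic receptor (written ADBR3 in the sample labels, gene symbol Adrb3) and of wild-type rats (WT). They were taken by gene name from the array's non-control probes. The list holds 7 receptors and kinases, 9 transcription factors, 8 sensors, 21 effectors and 3 feedback regulators. A probe carried the name of 46 of them, out of 26115 gene names on the array. No probe carried the names Tyk2 or Xaf1. Of these 46 genes, 41 were well above background in enough rats to be tested, among 15367 genes tested in all.

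RNA came from the left ventricle of male rats of 45 weeks and was hybridised to 13 one-colour Agilent arrays, 6 of WT and 7 of ADBR3 overexpressing hearts. Hearts 1 and 2 of each group were repeat labelings of the same sample and were averaged, so the comparison was between 4 WT rats (1, 3, 4 and 6) and 5 overexpressing rats (1, 3, 5, 6 and 7). WT heart 5 and overexpressing heart 4 were repeat hybridisations of a sample that the labels do not name, and they entered only an alternative. How the receptor was overexpressed, from which promoter and in which cells is not stated in the labels. Levels are log2 of the processed signal minus the same array's 75th percentile, so a level of 0 equals that percentile, and differences are overexpressing minus WT on that log2 scale. Values by rat are given in the order of the rat numbers above.

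Interferons are secreted proteins that bind receptors at the cell surface. The type I receptor is made of Ifnar1 and Ifnar2 and the interferon-gamma receptor of Ifngr1 and Ifngr2. The receptors act through Janus kinases on STAT proteins, which enter the nucleus. With Irf9 they bind the interferon-stimulated response element, ISRE, while STAT dimers bind the gamma-activated site, GAS. Their targets include antiviral effectors, the sensors of foreign RNA that set off interferon production, the transcription factor Irf7 that amplifies it, and feedback regulators that end it. Low levels of many of these genes are present in tissue without infection.

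The sequences through which interferon signals reach these genes are known, so the stretch around each gene's start was searched first. RefSeq promoters of 250 bases before and 50 bases after the gene start, on the GRCr8 build, were given for 36 of the 48 genes. The ISRE core, searched on both strands as 2 copies of GAAA with any 2 bases between them, was present in 17 of these 36 promoters (47.2%), against 3.92% of all 33469 promoters of that length. The GAS letters TTCNNNGAA, which read the same on both strands, were present in 9 of 36 (25%), against 8.87% of all promoters. Both were found in 5 genes and neither in 15, and the GAS and ISRE core letters overlapped in Bst2. The ISRE core was found in 12 of 16 effectors, 3 of 5 sensors, 1 of 8 transcription factors (Irf7), 1 of 2 feedback regulators (Socs1) and 0 of 5 receptors and kinases. A match is a description of the letters and not of binding.

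The windows below are those of the genes with the lowest unadjusted p-values that had a match, with Ifit3 and Oas1a added after their values were seen, because both have an ISRE core and differed between the groups in opposite directions. Each is written 5′ to 3′ along the gene, upstream of its start, and capitals mark the ISRE core, which reads as 2 copies of TTTC on the other strand, or for Irf1 the GAS letters.
Irf7: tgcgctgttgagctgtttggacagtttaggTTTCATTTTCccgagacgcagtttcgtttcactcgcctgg
Isg20: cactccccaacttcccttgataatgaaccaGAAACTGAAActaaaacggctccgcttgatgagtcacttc
Ifi44: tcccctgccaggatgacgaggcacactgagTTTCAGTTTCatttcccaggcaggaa
Parp14: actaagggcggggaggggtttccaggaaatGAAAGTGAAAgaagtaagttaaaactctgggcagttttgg
Bst2: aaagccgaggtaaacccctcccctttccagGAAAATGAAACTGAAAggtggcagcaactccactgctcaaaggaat
Irf1: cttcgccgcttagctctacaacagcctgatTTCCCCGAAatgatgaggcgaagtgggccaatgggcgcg
Ifit3: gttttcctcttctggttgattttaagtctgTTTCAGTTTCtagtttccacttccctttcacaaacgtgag
Oas1a: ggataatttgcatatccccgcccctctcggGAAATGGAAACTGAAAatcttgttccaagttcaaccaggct

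On GRCr8 the Irf7 window lies at chr1:205800053-205800122 on the minus strand, with the match starting 69 bases upstream. The Isg20 window lies at chr1:142239937-142240006 on the plus strand, with the match starting 92 bases upstream. The Ifi44 window lies at chr2:243303841-243303896 on the minus strand, with the match starting 26 bases upstream. Ifi44 has a further ISRE match that begins 26 bases after the start, outside the window. The Parp14 window lies at chr11:78408028-78408097 on the plus strand and that of Bst2 at chr16:18255053-18255128 on the minus strand. Bst2 carries 2 overlapping matches, as does Oas1a, whose window lies at chr12:41330395-41330465 on the plus strand. The windows of Irf1 and Ifit3 lie at chr10:38417763-38417831 and chr1:241527252-241527321, both on the plus strand. In all, 21 ISRE matches were found, 14 of them on the gene's own strand, and the farthest began 147 bases upstream of the start.

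**Figure D1:**
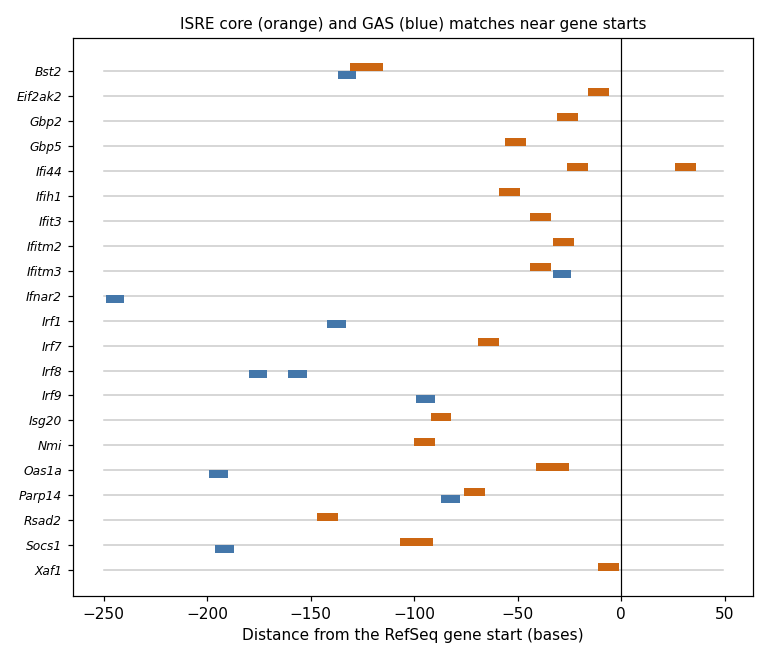
Positions of ISRE core (orange) and GAS (blue) matches in the RefSeq promoters of the genes with at least 1 match, against the distance in bases from the gene start at 0. Grey lines show the searched length, 250 bases before to 50 after the start, and most ISRE matches lie within 147 bases upstream of the start.

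The arrays were alike in brightness, with a 75th percentile of 760.4 to 908.7, 55.2% to 67.8% of spots well above background and no saturated spot. All 10 cardiomyocyte markers were measured, with a summed level (linear, in units of the array's 75th percentile) of 2860 to 3570 per rat. The Adrb3 probe exceeded background clearly on none of the WT arrays and on 1 of the 7 others, and its difference of 0.48 had an exact two-sided permutation p of 0.532 (smallest possible 0.00794). The array therefore gave no check of the group labels, and whether its probe would detect the overexpressed transcript is not given. The arrays' slides and scan days held both groups unevenly, and their values are given with the results.

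None of the 41 interferon genes passed an adjusted p of 0.05 in limma, where 0.00651% of all genes tested (1 gene) did, and the smallest adjusted p among them was 0.376. Most means were nevertheless lower in the overexpressing rats. The mean was lower for 30 genes and higher for 11, so 73.2% were lower against 53.3% of all genes tested. The median difference was -0.11, against -0.00892 over all genes. At an unadjusted p under 0.05, 7 genes were lower (17.1%, background 6.29%), namely Parp14, Bst2, Irf7, Isg20, Parp9, Irf1 and Ifi44, and 1 was higher (2.44%, background 3.15%), namely Ifngr2, 8 of 41 in all (background 9.44%). The rats of the groups did not overlap for 3 lower genes (7.32%, background 2.3%) and for 0 higher genes (background 1.22%). These counts rested in part on single rats. Without WT rat 4 the lower count was 4 instead of 7, with 7.04% of all genes tested lower. Without WT rat 3 or WT rat 4 the higher count was 0 (2.81% and 3.6% of all genes tested). Without overexpressing rat 1 or 7 it was 2 (3.36% and 2.41% of all genes tested). Scaling each array to its median turned the split over all genes at that p from 967 lower and 484 higher to 568 lower and 951 higher, and the interferon genes then gave 3 lower and 1 higher.

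**Figure D2:**
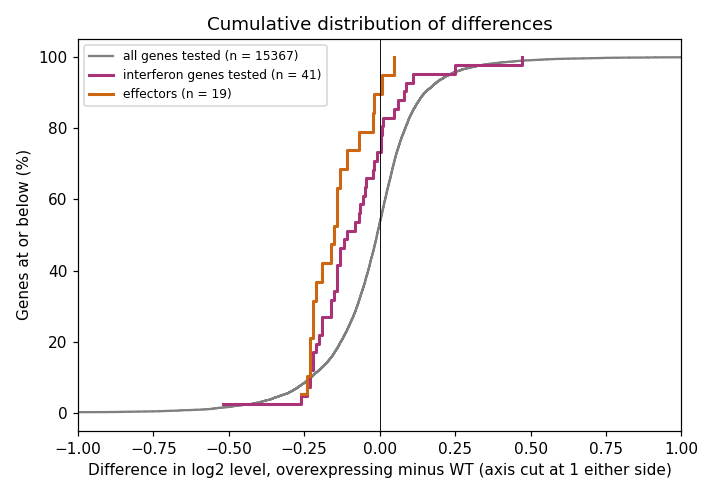
Cumulative share of genes (%) at or below each difference in log2 level, overexpressing minus WT, for all 15367 genes tested (grey), the 41 interferon genes tested (purple) and the 19 effectors among them (orange). The effector curve lies left of the grey curve over most of its length, with a median of -0.15 against -0.00892.

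The effectors, among them proteins that block viral entry, transcription, translation or release, were the class with the most lower means. Of 19 tested, 17 (89.5%) were lower and 2 higher, with a median difference of -0.15. Of these, 5 were lower at an unadjusted p under 0.05 (26.3%, background 6.29%), and none passed the adjusted threshold.

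Bst2 encodes tetherin, which holds budding virus particles at the cell membrane, and its probe lies at chr16:18698676-18698735 of rn4, the build of the array's annotation. Its level was 3.51, 3.38, 3.21 and 3.41 in the WT rats and 3.10, 3.30, 3.08, 3.03 and 3.09 in the overexpressing rats. Of the overexpressing rats, 4 were below every WT rat, and rat 3 lay within the WT range. The means were 3.38 ± 0.122 (SD, n = 4) and 3.12 ± 0.105 (SD, n = 5), a difference of -0.26 ± 0.0761 (SE) with an unadjusted p of 0.00828 and a limma adjusted p of 0.382.

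Parp14, a mono-ADP-ribosyltransferase with macrodomains, is measured at chr11:66768795-66768854. It stood at 1.07, 1.01, 1.16 and 0.96 in the WT rats and at 0.93, 0.82, 0.91, 0.71 and 0.80 in the overexpressing rats. Every overexpressing rat was below every WT rat, although rat 1 and WT rat 6 were close. The difference was -0.22 ± 0.0642 (SE), with an unadjusted p of 0.00747 and a limma adjusted p of 0.376. A further Parp14 probe, whose position spans chr11:66758890-66761414, gave -0.24 ± 0.13 (SE) with groups that overlapped.

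Parp9, an inactive relative of Parp14 with macrodomains of its own, lies close by on the same chromosome (probe at chr11:66622690-66622749). Its levels were -2.89, -2.88, -2.73 and -2.88 in the WT rats and -3.02, -2.90, -3.00, -3.19 and -3.10 in the overexpressing rats. The groups did not overlap, with overexpressing rat 3 only just below the lowest WT rats. The difference was -0.19 ± 0.0681 (SE), with a limma adjusted p of 0.447.

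Isg20, an exonuclease that degrades RNA, is measured at chr1:134637559-134637618. Its levels were -1.86, -1.58, -1.83 and -1.79 in the WT rats and -1.94, -1.83, -2.03, -2.16 and -2.07 in the overexpressing rats. Overexpressing rats 1, 5, 6 and 7 lay below every WT rat and rat 3 at the WT level, for a difference of -0.24 ± 0.0828 (SE) and a limma adjusted p of 0.445. Ifi44, an interferon-induced protein of little known function (chr2:250039283-250039342), stood at 0.28, 0.22, 0.26 and 0.29 in the WT rats and at 0.21, 0.13, 0.20, -0.20 and -0.19 in the overexpressing rats. The groups did not overlap, but the difference of -0.23 ± 0.1 (SE, limma adjusted p 0.525) was set largely by rats 6 and 7, and the other overexpressing rats lay just under the WT range. Without rats 6 and 7 it was -0.082.

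Other effectors had lower means with more overlap. Mx1, a dynamin-like GTPase that traps viral nucleoproteins, stood at 0.53, 0.26, 0.54 and 0.28 in the WT rats and at 0.22, 0.41, 0.19, 0.10 and -0.02 in the overexpressing rats, a difference of -0.22 with an unadjusted p of 0.0518. Ifit3, of the family that binds viral RNA, stood at -2.42, -2.83, -2.60 and -2.70 in the WT rats and at -2.73, -2.75, -2.75, -2.94 and -3.08 in the overexpressing rats, a difference of -0.21. WT rat 3 lay inside the overexpressing range. 

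Ifitm3, which hinders fusion of viral and cell membranes, stood at 1.46, 1.5, 1.32 and 1.49 in the WT rats and at 1.46, 1.38, 1.16, 1.44 and 1.04 in the overexpressing rats, a difference of -0.15 ± 0.0966 (SE). Only rats 5 and 7 were below the WT rats. Isg15, a ubiquitin-like modifier, stood at 0.61, 0.37, 0.53 and 0.42 in the WT rats and at 0.49, 0.62, 0.23, 0.12 and 0.25 in the overexpressing rats, a difference of -0.14 ± 0.107 (SE). Rats 5, 6 and 7 lay below every WT rat and rat 3 above. Rsad2, known as viperin, stood at -0.19, -0.04, -0.64 and -0.58 in the WT rats and at -0.38, 0.14, -0.80, -0.67 and -0.65 in the overexpressing rats, a difference of -0.11 ± 0.204 (SE). Its rats spread widely in both groups, and the difference was -0.00264 without WT rat 3 and -0.26 without overexpressing rat 3. For none of Mx1, Ifit3, Ifitm3, Isg15 and Rsad2 was the limma adjusted p under 0.526. The 9 remaining effectors were Gbp2, Gbp5, Nmi, Cmpk2, Ifi35, Mx2, Ifit2, Ifitm1 and Ifitm2, of which 7 had lower and 2 (Ifitm1 and Ifitm2) higher means, from -0.23 (Gbp5) to 0.0472 (Ifitm1).

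**Figure D3:**
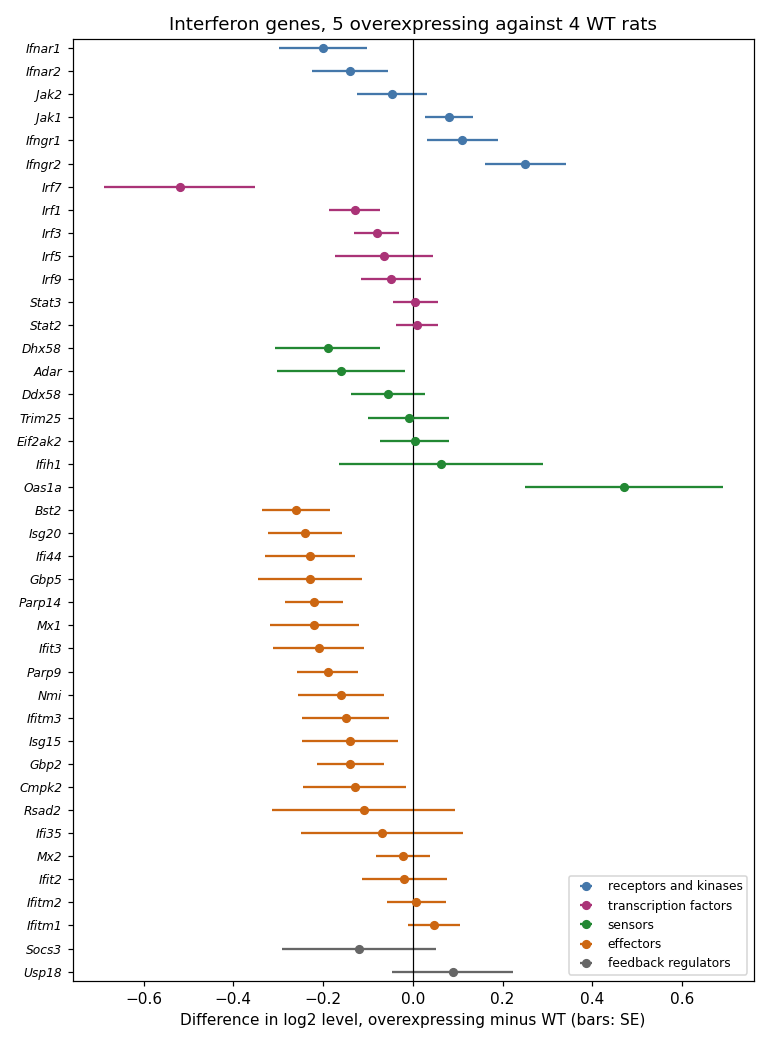
Difference in log2 level, overexpressing minus WT, of the 41 interferon genes tested (points) with the standard error from limma (bars), by class. Irf7 lies farthest left at -0.52 and Oas1a farthest right at 0.47, and 17 of 19 effectors lie left of 0.

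Among the transcription factors, 5 of 7 tested had lower means and 2 higher, with a median of -0.0652, and 2 of 7 were lower at an unadjusted p under 0.05 (background 6.29%). Irf7, which drives type I interferon genes once phosphorylated, had the largest difference of the 41 genes. Its probe lies at chr1:201456889-201456948. Its level was 1.65, 1.43, 1.44 and 1.71 in the WT rats and 1.19, 1.5, 1.00, 0.93 and 0.55 in the overexpressing rats. Overexpressing rats 1, 5, 6 and 7 were below every WT rat, rat 3 lay within the WT range, and rat 7 was lowest. The means were 1.56 ± 0.141 (SD, n = 4) and 1.04 ± 0.35 (SD, n = 5), a difference of -0.52 ± 0.169 (SE), or 1.43-fold, with an unadjusted p of 0.0131 and a limma adjusted p of 0.422. Without rats 6 and 7 the difference was -0.32.

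Irf1, an activator of interferon-gamma targets whose promoter window above carries GAS letters, is measured at chr10:39227520-39227579. It stood at 1.61, 1.6, 1.54 and 1.40 in the WT rats and at 1.42, 1.35, 1.40, 1.37 and 1.49 in the overexpressing rats. WT rat 6 lay within the overexpressing range, and the difference was -0.13 ± 0.0569 (SE, limma adjusted p 0.525). A further Irf1 probe gave -0.22 ± 0.262 (SE). 

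Stat2, the STAT partner used in type I signalling, stood at 1.01, 0.98, 1.00 and 1.05 in the WT rats and at 0.95, 1.05, 1.08, 1.05 and 0.97 in the overexpressing rats, a difference of 0.00935 ± 0.0464 (SE). Stat3, which relays cytokine signals more broadly, stood at 0.88, 0.90, 0.92 and 1.03 in the WT rats and at 0.96, 0.97, 0.89, 0.99 and 0.88 in the overexpressing rats, a difference of 0.00506 ± 0.05 (SE). Irf9, the DNA-binding partner of the STATs at the ISRE, stood at -2.27, -2.41, -2.26 and -2.19 in the WT rats and at -2.20, -2.40, -2.33, -2.29 and -2.44 in the overexpressing rats, a difference of -0.0489 ± 0.0666 (SE). For Stat2, Stat3 and Irf9 the groups overlapped widely, and Stat2 had the smallest spread between rats of the 41 genes (pooled SD 0.0469). Irf3, which acts directly downstream of the RNA sensors, differed by -0.0808 and Irf5, a factor of myeloid and B cells, by -0.0652.

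The sensors were divided, with 4 lower and 3 higher means among 7 tested and a median of -0.00964, and none passed an unadjusted p of 0.05. Oas1a, an oligoadenylate synthetase that activates RNase L when it meets double-stranded RNA, had the largest higher mean of the 41 genes (chr12:36815068-36815127). It stood at -1.89, -2.01, -2.01 and -1.68 in the WT rats and at -2.05, -0.83, -1.29, -1.25 and -1.71 in the overexpressing rats. Rats 3, 5 and 6 were above every WT rat, rat 7 lay within the WT range and rat 1 below it. The difference was 0.47 ± 0.22 (SE), with an unadjusted p of 0.0607 and a limma adjusted p of 0.529.

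The probe of Oas1k, another member of the family, named here because of the values of Oas1a, gave a like order of rats: -2.11, -2.02, -1.80 and -1.46 in the WT rats and -2.06, -0.68, -0.96, -1.05 and -1.58 in the overexpressing rats. Its difference was 0.58 ± 0.271 (SE). The longest stretch that its probe shared with that of Oas1a was 6 letters of 60, and whether either transcript binds the other's probe was not tested. The other family members tested did not have higher means: Oasl2 differed by -0.38, Oas1e by -0.11, Oas1i by -0.1 and Oas1b by -0.0123.

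The helicases that detect viral RNA in the cytosol had overlapping groups. Ddx58, known as RIG-I, stood at -2.35, -2.23, -2.12 and -2.02 in the WT rats and at -2.21, -2.22, -2.14, -2.19 and -2.42 in the overexpressing rats, a difference of -0.0552 ± 0.082 (SE). Ifih1, known as MDA5, differed by 0.0619 ± 0.227 (SE) and exceeded background clearly on 4 of the 6 WT arrays and all 7 of the others. Its levels were -4.00, -4.19, -4.18 and -4.76 in the WT rats and -4.10, -4.16, -4.79, -3.66 and -4.39 in the overexpressing rats, the widest pooled SD of the 41 genes (0.381). Dhx58, known as LGP2, the regulator of RIG-I and MDA5, stood at -3.78, -3.72, -3.81 and -3.93 in the WT rats and at -3.76, -3.91, -4.40, -3.93 and -3.98 in the overexpressing rats, of which rats 5, 6 and 7 lay below every WT rat, rat 6 by less than the rounding. Its difference was -0.19 ± 0.117 (SE), and -0.085 without rat 5. Adar, which edits double-stranded RNA, Trim25, a ubiquitin ligase of RIG-I, and Eif2ak2 differed by -0.16, -0.00964 and 0.00425. The probes of Eif2ak2, the kinase PKR, disagreed: a further probe gave -0.32 ± 0.151 (SE).

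The receptors and kinases had 3 lower and 3 higher means among 6 tested, with a median of 0.0172. Ifngr2, the signalling chain of the interferon-gamma receptor, was the gene with a higher mean at an unadjusted p under 0.05 (chr11:31525935-31525994). It stood at 0.54, 0.46, 0.42 and 0.54 in the WT rats and at 0.58, 0.52, 0.82, 0.85 and 0.93 in the overexpressing rats. Rats 5, 6 and 7 were well above every WT rat, while rat 3 lay within the WT range and rat 1 just above it. The difference was 0.25 ± 0.0902 (SE), with a limma adjusted p of 0.461. Ifngr1, the chain that binds interferon-gamma, stood at 1.56, 1.58, 1.62 and 1.78 in the WT rats and at 1.67, 1.74, 1.76, 1.94 and 1.59 in the overexpressing rats. The groups overlapped, with a difference of 0.11 ± 0.0787 (SE).

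The type I receptor chains had lower means. Ifnar1 stood at -2.68, -2.70, -2.58 and -2.46 in the WT rats and at -2.66, -2.61, -2.93, -3.04 and -2.80 in the overexpressing rats, so the same rats 5, 6 and 7 that were high for Ifngr2 lay below every WT rat here. The difference was -0.20 ± 0.0986 (SE, limma adjusted p 0.541). Ifnar2 differed by -0.14, and the kinases Jak1 and Jak2 by 0.0807 and -0.0462.

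Of the feedback regulators, 2 of 3 were tested. Usp18, which removes Isg15 from proteins and dampens type I receptor signalling, stood at -0.58, -0.71, -0.67 and -0.56 in the WT rats and at -0.26, -0.23, -0.75, -0.63 and -0.84 in the overexpressing rats. Rats 1 and 3 were above every WT rat and rats 5 and 7 below, so the difference of 0.0887 ± 0.135 (SE) hides a spread between overexpressing rats (SD 0.284) larger than that between WT rats (SD 0.0712). It was 0.00967 without rat 3 and 0.16 without rat 7. Its further probe gave 0.0708. Socs3, an inhibitor of Janus kinases, stood at -4.44, -4.33, -4.54 and -4.40 in the WT rats and at -4.21, -4.46, -5.09, -4.75 and -4.25 in the overexpressing rats. The difference was -0.12 ± 0.172 (SE), and the labelings of WT rat 1 differed by 0.787 for this dim probe.

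**Figure D4:**
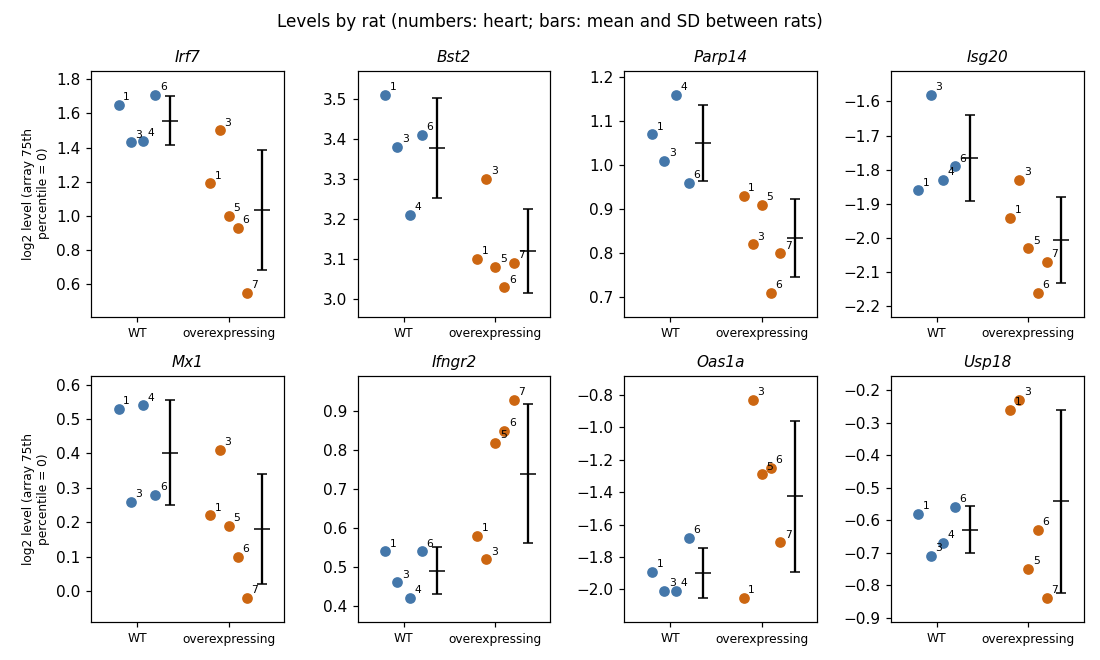
Log2 level, with the array's 75th percentile at 0, of 8 interferon genes in each of 4 WT (blue) and 5 overexpressing (orange) rats, numbered by heart. Bars give the mean and SD between rats. For Parp14 every overexpressing rat lies below every WT rat, while for Usp18 overexpressing rats 1 and 3 lie above and 5 and 7 below the WT rats.

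The remaining 5 genes with a probe, Ifit1, Irf2, Irf8, Oasl and Socs1, were not tested. Ifit1 was well above background on a single array, of the 7 overexpressing hearts, and the others on no array, so these probes gave no measure of a difference.

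The lower means were not spread evenly over the overexpressing rats. The mean level of the 19 effectors was 0.21, 0.17, 0.15 and 0.0831 in the WT rats and 0.0586, 0.10, -0.0184, -0.0369 and -0.0413 in the overexpressing rats. Overexpressing rat 3 was above WT rat 6, and rats 5, 6 and 7 were lowest. Rats 6 and 7, singled out after their values were seen, held the lowest value of the 9 rats in 11 of 19 effectors (57.9%), against 22.4% of all genes tested. With both left out, 28 of 41 interferon genes and 16 of 19 effectors still had lower means. The median was then -0.0741 over the interferon genes and -0.11 over the effectors, but the count at an unadjusted p under 0.05 was 3 of 41 lower and 0 higher, where 5.86% and 1.69% of all genes tested were. Rat 6 also had the highest summed level of atrial and conduction markers, 421, where no other rat exceeded 268, and the part of that in its interferon values was not tested. The median spread between rats of a group was a pooled SD of 0.141, and the labelings of the same rat differed by a median of 0.0614 in WT rat 1 and 0.0784 in overexpressing rat 1.

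**Figure D5:**
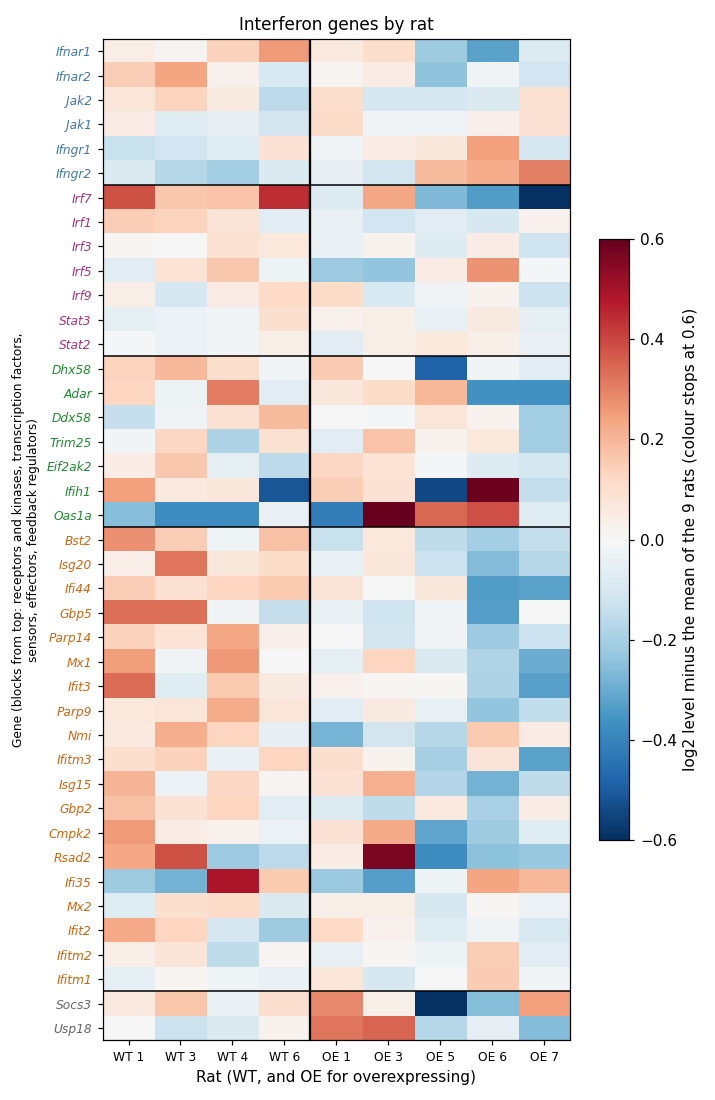
Log2 level of the 41 interferon genes tested minus each gene's mean over the 9 rats (colour, limited to 0.6 either side), with the WT rats left and the overexpressing rats right of the vertical line and the classes in blocks. The effector block is mostly red in the WT rats and mostly blue in overexpressing rats 5, 6 and 7. Ifngr2 runs the other way in those rats, and Oas1a does so in rats 5 and 6 but not in rat 7.

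Of 5 slides, 3 held both groups, and the direction was compared within them. Each of these comparisons rested on a single array in at least 1 group. These arrays were overexpressing heart 1 on slide 1, WT heart 4 and overexpressing heart 7 on slide 3, and WT heart 5 on slide 4. Over all genes tested the median differences were -0.0162, 0.00346 and -0.0113 on slides 1, 3 and 4. The median difference of the effectors was -0.0624 on slide 1, -0.14 on slide 3 and -0.16 on slide 4, the last with the repeat hybridisations of WT heart 5 and overexpressing heart 4, which the main comparison left out. Over the probes well above background on every array, WT heart 5 was closest to WT heart 4, the WT array of slide 3. The SD of the differences was 0.1465, against at least 0.2352 for every other array of the main comparison. Slides 3 and 4 may therefore hold the same WT rat and are then not separate comparisons. Overexpressing heart 4 was closest to overexpressing heart 3 (SD 0.19, against at least 0.2246), so it may come from overexpressing rat 3. By scan day the effector median was -0.0922 and -0.17, against -0.0129 and -0.0075 over all genes tested. WT heart 4 was the only WT array of the first scan day. Irf7 differed by -0.49, -0.89 and -0.34 on slides 1, 3 and 4 and by -0.36 and -0.55 on the scan days. On the same slides Parp14 differed by -0.1, -0.36 and -0.39, and Bst2 by -0.33, -0.12 and -0.0849. Ifngr2 was higher on each slide, by 0.0651, 0.50 and 0.29. Oas1a was not of one direction: it differed by -0.30 on slide 1 and by 0.30 and 0.75 on slides 3 and 4. With slide as a block in limma, 2 of 41 interferon genes were lower and 0 higher at an unadjusted p under 0.05, where 2.92% and 1.75% of all genes tested were. That fit left out WT heart 5 and overexpressing heart 4. Slide 4 then held only overexpressing hearts 5 and 6, and only slides 1 and 3 held both groups, so the fit rested mainly on these 2 slides.

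A wider list of 116 other genes of interferon pathways, of which 100 had a probe and 75 were tested, had 50 lower and 25 higher means and a median of -0.0566. At an unadjusted p under 0.05, 8 of the 75 were lower (background 6.29%) and 1 higher (1.33%, background 3.15%), and none passed the adjusted threshold, the smallest adjusted p being 0.262. Slfn3, of the Schlafen family, stood at -2.26, -2.82, -2.32 and -2.57 in the WT rats and at -2.97, -2.88, -3.30, -3.32 and -3.33 in the overexpressing rats. The groups did not overlap, and the difference of -0.67 ± 0.143 (SE) was larger than that of Irf7.

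Parp12, another ADP-ribosyltransferase, stood at -0.16, -0.08, -0.04 and -0.19 in the WT rats and between -0.31 and -0.27 in every overexpressing rat, a difference of -0.18 ± 0.0467 (SE). Tmem173, which encodes the DNA-signalling adaptor STING, stood between -0.29 and -0.19 in the WT rats and between -0.47 and -0.33 in the overexpressing rats, a difference of -0.15. Neither overlapped between the groups. Epsti1 differed by -0.38, but its probe exceeded background clearly on only 3 of the 6 WT arrays and 5 of the 7 others. Azi2, an adaptor of the kinase TBK1, was the gene with a higher mean at that p, by 0.20 ± 0.0622 (SE).

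Many interferon genes can be expressed by heart muscle, vessel and immune cells. In bulk ventricle, fewer cells of a type cannot be told apart from less RNA per cell. Most lists of immune cell markers had mainly lower means in the overexpressing rats, and the B lymphocyte list did not. Of the T and NK lymphocyte markers, 10 of 11 tested had lower means, with a median difference of -0.35. In limma 5 of these 11 were lower at an unadjusted p under 0.05 (45.5%, background 6.29%), and none passed the adjusted threshold. Their summed level was 2.14 to 2.86 in the WT rats and 1.62 to 2.15 in the overexpressing rats. Cd5 and Ncr1 of that list were not well above background on any array. Of the macrophage and myeloid markers, 11 of 14 tested had lower means, with a median difference of -0.13. Their sums were 45.9 to 53.8 and 41.4 to 50.7, and Ccr2 was never well above background. In limma 1 of these 14 was lower at an unadjusted p under 0.05 (7.14%). Of the plasmacytoid dendritic cell markers 3 of 3 had lower means, with a median difference of -0.18 (sums 6.36 to 8.17 and 5.74 to 6.93). The defining markers Siglech and Spib were never well above background. Of the mast cell and granulocyte markers 6 of 7 tested were lower, with a median difference of -0.42 (1.93 to 2.84 and 1.73 to 2.44). In limma 2 of these 7 were lower at an unadjusted p under 0.05 (28.6%). Mcpt1, Ms4a2 and Elane were never well above background. Of the B lymphocyte markers 1 of 2 tested was lower, with a median difference of -0.00931 and sums of 0.687 to 1.19 and 0.788 to 1.03, and Cd79b was never well above background. Lists outside the immune cells could also have mostly lower means, with smaller median differences than every immune list but that of B lymphocytes. Cardiomyocyte markers had lower means in 7 of 10, with a median of -0.0173 (2860 to 3570 and 3170 to 3500). Endothelial markers had lower means in 7 of 9, with a median of -0.034 (31.2 to 33.6 and 30.4 to 32.5). Fibroblast markers had higher means in 8 of 8, with a median of 0.13 (49.7 to 60.7 and 54.7 to 64.7). The part of these cells in the lower interferon values was not tested.

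Of the 8 genes at an unadjusted p under 0.05 in limma, 5 had an ISRE core and 3 had GAS letters. Over all 36 interferon promoters searched, 47.2% had an ISRE core and 25% GAS letters. Bst2 and Parp14 had both, and Parp9 and Ifngr2 had neither. Of the 15 tested genes with an ISRE core, 11 had lower means, with a median difference of -0.16. Of the 17 tested genes whose promoter had none, 13 had lower means, with a median of -0.0688. The ISRE core was itself present in 12 of 16 effector promoters and in 0 of 5 of receptors and kinases. Motif and class therefore cannot be told apart in these medians. Ifit3 and Oas1a, which both carry the ISRE core within 44 bases upstream of the start, differed by -0.21 and 0.47.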

How the data were processed

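Left ventricular RNA of 4 WT and 5 ADBR3 overexpressing rats was measured on Agilent arrays. The deposited intensity values are processed signals of Agilent Feature Extraction 10.7.1.1, per the file headers, which also give rn4 as the build of the probe annotation. The authors' deposited value table of 20000 probes is on a natural log scale, as set against the scanner values, and was used only as an alternative. Here log2 signal minus each array's 75th percentile was averaged over labelings of a rat. Each gene is its brightest probe by mean, kept where well above background in at least 4 of 9 rats (17587 of 30367 probes). Groups were compared with limma 3.58.1 in R 4.3.3 (lmFit, eBayes, group only, Benjamini-Hochberg over 15367 genes), tested on simulated data. Replicates are separate rats as far as the labels say, and the number of arrays limits the precision. Genes named singly were those at an unadjusted p under 0.05 the 2 largest differences of each class and preset members, and of the wider list at most 4 genes in each direction at that p, by p. The members and lists were chosen with earlier results of these data known. Alternatives were other scalings, background corrections, filters, the deposited table, slide, scan day and replicate blocks, and each rat left out. One alternative, without overexpressing rats 6 and 7, was added after seeing the data. Probe positions were not compared with an rn4 gene annotation, so exon or UTR is not given. Promoters are from RefSeq (GRCr8).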

Additional observations from a re-analysis of the deposited data

Results flagged for a closer look

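In 3 of 60 groups of rats examined (4 or 5 rats each) the highest or lowest rat lay far from the others, and chance alone gives about 1 group in 20. Bst2 in overexpressing rat 3 stood at 3.30, above the 3.03 to 3.10 of the other overexpressing rats. Ddx58 in overexpressing rat 7 stood at -2.42, below the others at -2.22 to -2.14. Parp9 in WT rat 4 stood at -2.73, above the other WT rats at -2.89 to -2.88.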

How the results depend on the processing

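No interferon gene passed the adjusted threshold under any of 24 alternatives, where the smallest adjusted p among them ran from 0.254 to 0.986. Of 24 genes named singly, 17 kept their sign in all of these alternatives; the exceptions were Ddx58, Dhx58, Ifih1, Rsad2, Socs3, Stat2 and Stat3. The cause of the changes below was not tested. With slide as a block Dhx58 differed by 0.0275, Ifih1 by -0.0741, Rsad2 by 0.11, Socs3 by 0.35, Stat2 by -0.11 and Stat3 by -0.0353. With normexp and quantile normalization Ddx58 differed by 0.000181, Socs3 by 0.0112, Stat2 by -0.039 and Stat3 by -0.0122. With normexp and the 75th percentile Ifih1 differed by -0.0242 and Stat2 by -0.0235, and with quantile normalization Stat2 by -0.00656 and Stat3 by -0.0117. In the authors' deposited table Stat2 differed by -0.0521 and Stat3 by -0.0433, with scan day as a block by -0.0112 and -0.000374, and Stat2 with the repeat hybridisations averaged in by -0.00508. Without overexpressing rats 6 and 7 Ifih1 differed by -0.0697 and Rsad2 by 0.0141.

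The median difference of the interferon genes was -0.0499 with normexp and quantile normalization and -0.0566 in the authors' deposited table. That of the receptors and kinases was 0.0587 with median scaling and that of the feedback regulators 0.22 with slide as a block. Interferon genes lower at an unadjusted p under 0.05 numbered 3 of 41 with median scaling, where 3.7% of all genes tested were lower. They numbered 2 with slide as a block (2.92% of all genes) and 3 without overexpressing rats 6 and 7 (5.86%). The higher count was 0 with slide as a block (1.75% of all genes) and without those rats (1.69%). In the wider list of 75 tested genes the lower count was 4 with median scaling, where 3.7% of all genes tested were lower. It was 5 with normexp and quantile normalization (6.21% of all genes) and 2 with slide as a block (2.92%). Quantile normalization gave 2 higher genes there, where 4.19% of all genes tested were higher. Normexp with the 75th percentile and the authors' deposited table also gave 2 each (2.9% and 3.41% of all genes). Median scaling gave 5 (6.19%), normexp with quantile normalization 3 (4.13%) and slide as a block 0 (1.75%). Over all genes tested, 39.0% were lower with median scaling and 65.1% with no filter, against 53.3%.

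Rats numbered 1, 3 and 6 occur in both groups, and the labels do not say whether same-numbered rats were paired. Their deviations from the group means correlated at 0.123, 0.051 and 0.151, and each correlated best with its own number. In these rats with the replicate block the median of the interferon genes was -0.0544, the lower count 4 and the higher count 0. The wider list then had 5 lower and 2 higher, where 6.53% of all genes tested were lower and 2.8% higher. Without the block on the same rats the median was -0.0544, the counts 3 and 0, and the wider list had 3 higher. Of all genes tested, 5.99% were then lower and 2.54% higher.

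With each rat left out in turn, the interferon genes lower at an unadjusted p under 0.05 numbered 4 to 10 and those higher 0 to 2. Over all genes tested, 5.02% to 7.04% were lower and 2.38% to 3.81% higher at that p. The lower means of the interferon genes numbered 28 to 33, and their median difference ran from -0.12 to -0.0692. The effector median ran from -0.21 to -0.14, that of the transcription factors from -0.10 (without overexpressing rat 6) to -0.0306 (without overexpressing rat 3), that of the sensors from -0.0666 (without overexpressing rat 6) to 0.0308 (without overexpressing rat 7), that of the receptors and kinases from -0.024 to 0.0353 and that of the feedback regulators from -0.10 to 0.0765. The wider list gave 6 to 10 lower and 1 to 2 higher, beside the same shares over all genes. Other genes that moved by over 1.5 times and kept their sign were Rsad2 (-0.26 to -0.00264), Usp18 (0.00967 to 0.16), Ddx58 (-0.11 to -0.000388), Dhx58 (-0.24 to -0.085), Irf9 (-0.0918 to -0.0185), Ifngr1 (0.0551 to 0.15), Ifitm3 (-0.19 to -0.0819) and Isg15 (-0.21 to -0.0843), whereas Ifih1 ran from -0.10 to 0.20, Socs3 from -0.21 to 0.0113, Stat2 from -0.00515 to 0.027 and Stat3 from -0.0119 to 0.0375. Signal over background limits Adar, Ifih1 and Socs3, which were not well above background on every array, and none of these had a value under the strict filter.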
